A study of Mus musculus with 8 samples.

Results

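Genes for 8 receptors by which leukocytes sense formyl peptides and lipid messengers were examined in sorted mouse blood monocytes (MCs). They were taken by gene symbol, as Fpr1, Fpr2, Ltb4r1, Ptafr, S1pr1, S1pr4, S1pr5 and Gpr183, with earlier results of these data known. All 8 of 8 were found among the 16486 genes of the deposited expression values. CT mice were C57/BL6. T1DM mice were C57/BL6 given streptozotocin (STZ), which kills insulin-producing beta cells, at 50 mg/kg daily over 5 days starting at the age of 8 weeks. The T2DM model was the db/db mouse, with a homozygous leptin receptor mutation that leads to obesity and diabetes. All were male, ate chow and were bled at 20 to 22 weeks of age. CD11b+Ly6G- cells were sorted into Ly6Chigh and Ly6Clow MCs, 100000 cells for each subset, with material of 5 mice pooled. In the values used here CT had 2 libraries of each subset and T1DM and T2DM had 1 each, which makes 8 libraries, 4 per subset. The study's methods state 2 datasets for every group, so its other diabetic libraries are not among these values. The sequencer was a NextSeq 500 for CT and a HiSeq 4000 for T1DM and T2DM, so that diabetes and sequencer cannot be told apart wherever diabetic and CT MCs are compared. The study's methods describe RNA of 5 mice per group that was pooled and then sequenced in duplicate. Neither they nor the labels say that the 2 CT libraries of a subset came from separate pools of mice. Every p-value thus measures only the spread between libraries, which may be technical.

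All 8 genes encode G protein-coupled receptors. Fpr1 and Fpr2 bind N-formylated peptides shed by bacteria and damaged mitochondria, Fpr2 also binds annexin A1, and both guide phagocytes to sites of injury. Ltb4r1 (BLT1) is the high-affinity receptor for leukotriene B4 and Ptafr the receptor for platelet-activating factor (PAF), both lipids made by activated leukocytes. S1pr1, S1pr4 and S1pr5 sense sphingosine-1-phosphate (S1P), which is high in blood and low in tissue: S1pr1 lets lymphocytes leave lymphoid organs, and S1pr5 is known for the exit of NK cells and of Ly6Clow MCs from the bone marrow. Gpr183 (EBI2) binds oxysterols made from cholesterol and positions B cells and other leukocytes in lymphoid tissue.

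A value below is a deposited log2 expression value unless named as a difference. The study's methods name both gene counts and TPM, a unit scaled by transcript length, and which of them lies behind the deposited values is not given in the sources used here, so levels were compared between libraries and not between genes. A difference of 1 is 2-fold. No read counts were available, so the depth behind a value is unknown. The gap between CT replicates ran from 0.0082 to 0.656 over the 8 genes and both subsets, against a median over all genes of 0.257 in Ly6Chigh and 0.247 in Ly6Clow MCs. Tests within CT mice take their error from these gaps, and tests over all mouse groups also from how far the subset difference varied between the mouse groups. In both, limma draws the error of each gene toward a trend of variance on expression over all genes. A gene was called where limma gave a Benjamini-Hochberg adjusted p under 0.01 and an absolute log2FC above 1. Of the markers of the sorted subsets, 7 of 7 classical MC genes were higher in every Ly6Chigh than in every Ly6Clow library. Of the nonclassical MC genes, 7 of 9 were lower, while Nr4a1 and Cx3cr1 overlapped between the subsets. In CT mice Cx3cr1 was 8.59 and 8.61 in Ly6Chigh and 7.76 and 7.78 in Ly6Clow MCs. Of 6 genes of MCs in general, 5 were higher in every Ly6Chigh library. The log2 of their summed level was 15.2 to 15.7 in Ly6Chigh and 12.9 to 13.2 in Ly6Clow libraries. B cell genes were also present, with all 12 of 12 lower in every Ly6Chigh than in every Ly6Clow library. In bulk samples, fewer cells of a type and less RNA per cell cannot be told apart.

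**Figure D1:**
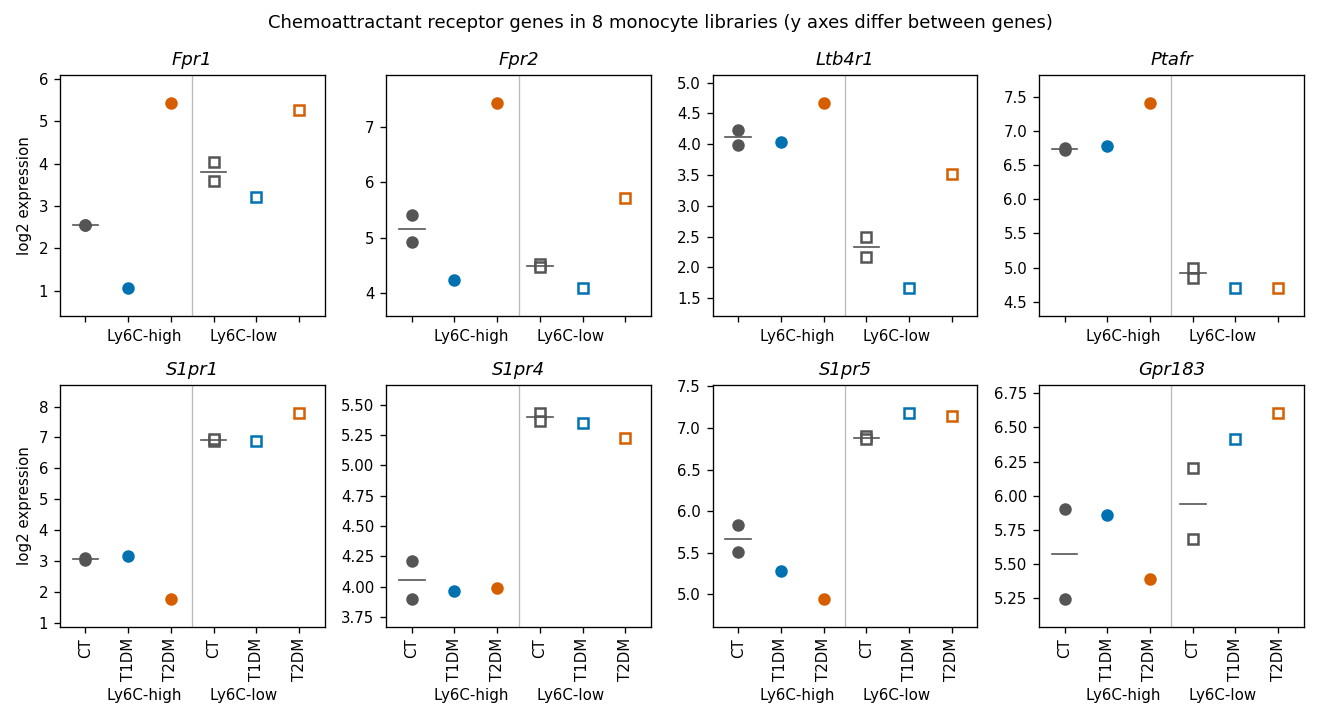
Deposited log2 expression of each receptor gene (y axis, its own scale for each gene) in the 8 libraries by mouse group and subset (x axis). Filled circles are Ly6Chigh and open squares Ly6Clow libraries, and a line marks the mean of 2 CT libraries. Ltb4r1 and Ptafr lay higher in all 4 Ly6Chigh libraries, S1pr1, S1pr4 and S1pr5 lay lower in them, and Fpr1 and Fpr2 were highest in the 2 T2DM libraries.

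Fpr1 and Fpr2 are neighbours. In GENCODE M21 (GRCm38), Fpr1 (ENSMUSG00000045551.7) lies at chr17:17876471-17883940 on the minus strand and Fpr2 (ENSMUSG00000052270.7) at chr17:17887824-17893952 on the plus strand. They point away from each other with their starts 3884 bases apart, and 0 other genes of that annotation overlap the stretch between the starts. Their promoters are shown because these 2 genes moved together between the mouse groups. The stretches run from 250 bases before to 20 bases after the gene start and are from RefSeq, build GRCm38.p6, read 5′ to 3′ on the strand of the gene, at chr17:17883920-17884189 for Fpr1 and chr17:17887574-17887843 for Fpr2. Capitals mark the letters of the motifs TTNNGNAA (C/EBP, a factor family of myeloid cells) and GTAAACA (FOXO) on either strand.
Fpr1 promoter: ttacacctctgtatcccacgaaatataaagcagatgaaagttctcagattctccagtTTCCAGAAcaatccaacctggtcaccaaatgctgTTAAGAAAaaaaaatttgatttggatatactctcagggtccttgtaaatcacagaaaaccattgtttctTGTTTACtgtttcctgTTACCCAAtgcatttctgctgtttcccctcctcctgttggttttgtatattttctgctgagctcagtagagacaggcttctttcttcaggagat
Fpr2 promoter: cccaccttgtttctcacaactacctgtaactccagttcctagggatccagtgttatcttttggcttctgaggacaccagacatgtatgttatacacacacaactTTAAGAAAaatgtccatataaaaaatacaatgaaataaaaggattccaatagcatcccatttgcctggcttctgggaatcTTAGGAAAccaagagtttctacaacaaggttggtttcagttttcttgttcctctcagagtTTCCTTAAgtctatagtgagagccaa
Each promoter held the C/EBP letters at 3 places, and Fpr1 held the FOXO letters at 1. No matches overlapped. Of 27025 mouse promoters of 300 bases, 40.7% hold the C/EBP letters and 3.55% the FOXO letters, so the first are common. The letters AGGAAGT (PU.1), AAGGTCA (NR4A), CACCC (KLF) and GGTGTGA (T-box), which 9.57%, 4.66%, 56.7% and 3.96% of promoters hold, were at 0 places in the 300 bases of both genes. Among the 7 receptor genes with an entry in the promoter table, Ltb4r1 held AGGAAGT at 1 place and CACCC at 5, Ptafr held CACCC at 3 and GTAAACA at 1, and Gpr183 held the C/EBP letters at 2. A match is a run of letters and was not tested as a binding site. S1pr4 and S1pr5 held CACCC only among these motifs, at 1 and 2 places.

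The first question was how the receptors differ between Ly6Chigh and Ly6Clow MCs of the same mice. The chemoattractant receptors Ltb4r1 and Ptafr were higher in Ly6Chigh MCs and the 3 S1P receptors were higher in Ly6Clow MCs, in every mouse group. In the test over the 8 libraries with mouse group as covariate, 2 of 8 receptor genes were called higher and 3 lower in Ly6Chigh MCs, where 5.37% of all 16486 genes were called higher and 6.76% lower. All 4 Ly6Chigh libraries lay above all 4 Ly6Clow libraries for 2 of 8 genes and below them for 3 of 8, beside 16.4% and 16.3% of all genes (32.8% in either direction). In CT mice alone (2 against 2 libraries) 1 receptor gene was called higher and 1 lower, where 2.1% and 1.43% of all genes were. The median log2FC over the 8 genes was -0.79 in CT mice and -0.87 over all mouse groups, beside -0.09 and -0.08 over all genes.

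Ptafr (ENSMUSG00000056529.7, chr4:132564067-132582683) held 6.72 and 6.75 in the CT Ly6Chigh libraries, 6.79 in T1DM and 7.41 in T2DM Ly6Chigh MCs. Ly6Clow MCs held 5.00 and 4.85 in the CT, 4.70 in the T1DM and 4.70 in the T2DM library. All 4 Ly6Chigh libraries thus lay above all 4 Ly6Clow libraries, and the T2DM Ly6Chigh library was the highest. Ptafr was called in CT MCs, at a log2FC of 1.81 (SE 0.10, limma adjusted p = 0.0058), and over all mouse groups at 2.11 (SE 0.16, limma adjusted p = 2.44e-05), a 4.30-fold difference. The CT call was lost without any 1 of the CT libraries, which leaves 1 subset with a single library. The loss was not particular to Ptafr, and its log2FC ran from 1.74 to 1.88. The call over all mouse groups held whichever CT library was left out, at a log2FC of 2.14 to 2.19.

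Ltb4r1 (ENSMUSG00000046908.5, chr14:55765962-55768494) held 3.99 and 4.23 in the CT, 4.03 in the T1DM and 4.67 in the T2DM Ly6Chigh MCs. In Ly6Clow MCs it held 2.49 and 2.16 in the CT, 1.66 in the T1DM and 3.52 in the T2DM library. The subsets again did not overlap, and T2DM was the highest mouse group in each subset. The log2FC was 1.79 in CT (SE 0.22, limma adjusted p = 0.0205, not called) and 1.78 over all mouse groups (SE 0.24, limma adjusted p = 0.000603, called). In single libraries the subset difference was 2.37 in T1DM and 1.16 in T2DM mice.

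S1pr1 (ENSMUSG00000045092.8, chr3:115710433-115715072), the lymphocyte egress receptor, had the largest subset difference of the 8 genes in every mouse group. Its values were 3.04 and 3.11 in the CT, 3.17 in the T1DM and 1.78 in the T2DM Ly6Chigh MCs, and 6.88 and 6.95 in the CT, 6.89 in the T1DM and 7.80 in the T2DM Ly6Clow MCs. The gap between the subsets was far wider than any gap within them, and T2DM mice held both the lowest Ly6Chigh and the highest Ly6Clow value. The log2FC was -3.84 in CT (SE 0.11, limma adjusted p = 0.00321), or 14.3-fold, and -4.35 over all mouse groups (SE 0.35, limma adjusted p = 3.17e-05), and S1pr1 was called in both. As for Ptafr, the CT call was lost without any 1 of the CT libraries, which leaves 1 subset with a single library. The loss was not particular to S1pr1, and its log2FC ran from -3.88 to -3.80. The call over all mouse groups held.

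S1pr5 (ENSMUSG00000045087.8, chr9:21242912-21248443), the receptor known for MC and NK cell egress, held 5.83 and 5.51 in the CT, 5.28 in the T1DM and 4.95 in the T2DM Ly6Chigh MCs. The Ly6Clow libraries held 6.90 and 6.87 in the CT, 7.18 in the T1DM and 7.14 in the T2DM library. Diabetic libraries thus lay below both CT libraries in Ly6Chigh MCs and above both in Ly6Clow MCs. The log2FC was -1.21 in CT (SE 0.14, limma adjusted p = 0.0177, not called) and -1.63 over all mouse groups (SE 0.18, limma adjusted p = 0.000198, called). An antisense gene, Gm48303, overlaps S1pr5 and holds 22 of its 2470 sequences of 31 bases.

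S1pr4 (ENSMUSG00000044199.6, chr10:81497747-81500132), an S1P receptor of blood leukocytes, varied least within the subsets. It held 4.21 and 3.90 in the CT, 3.96 in the T1DM and 3.99 in the T2DM Ly6Chigh MCs, against 5.43 and 5.36 in the CT, 5.35 in the T1DM and 5.22 in the T2DM Ly6Clow MCs. The single-library subset differences were -1.39 in T1DM and -1.24 in T2DM mice, beside a CT log2FC of -1.34 (SE 0.16, limma adjusted p = 0.0188, not called). Over all mouse groups the log2FC was -1.33 (SE 0.14, limma adjusted p = 0.000136) and S1pr4 was called.

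B cell, NK cell and MC subset genes moved with the S1P receptors between the subsets. The 12 B cell markers summed to between 8.33 and 9.48 (log2 of the summed level) in the Ly6Chigh and between 12.5 and 12.8 in the Ly6Clow libraries. Within the subsets, all 12 B cell markers of the T2DM Ly6Chigh library were below both CT libraries, and 10 of 12 in the T2DM Ly6Clow library were above both, as S1pr1 was. In T1DM mice 10 of 12 in Ly6Chigh and 9 of 12 in Ly6Clow MCs were above both, while S1pr1 was above both in Ly6Chigh MCs and between the CT values in Ly6Clow MCs. The 11 NK cell markers summed to between 5.15 and 7.26 in Ly6Chigh and between 7.68 and 10.1 in Ly6Clow libraries. NK markers and S1pr5 lay on the same side of CT in T1DM Ly6Clow MCs, where 11 of 11 NK markers were above both CT libraries (sum 10.1, CT 9.62 and 9.57), and in T2DM Ly6Chigh MCs, where 11 of 11 were below both (sum 5.15). They lay on opposite sides in T2DM Ly6Clow MCs, where 11 of 11 NK markers were below both CT libraries (sum 7.68) and S1pr5 was above them, and in T1DM Ly6Chigh MCs, where 8 of 11 were above both (sum 7.26) and S1pr5 was below. The 9 nonclassical MC markers were all below both CT libraries in T2DM Ly6Chigh MCs (sum 9.41, CT 10.6 and 10.7), where S1pr1 and S1pr5 were lowest. The part of B cells, NK cells and the MC makeup in the S1P receptor differences was not tested.

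**Figure D2:**
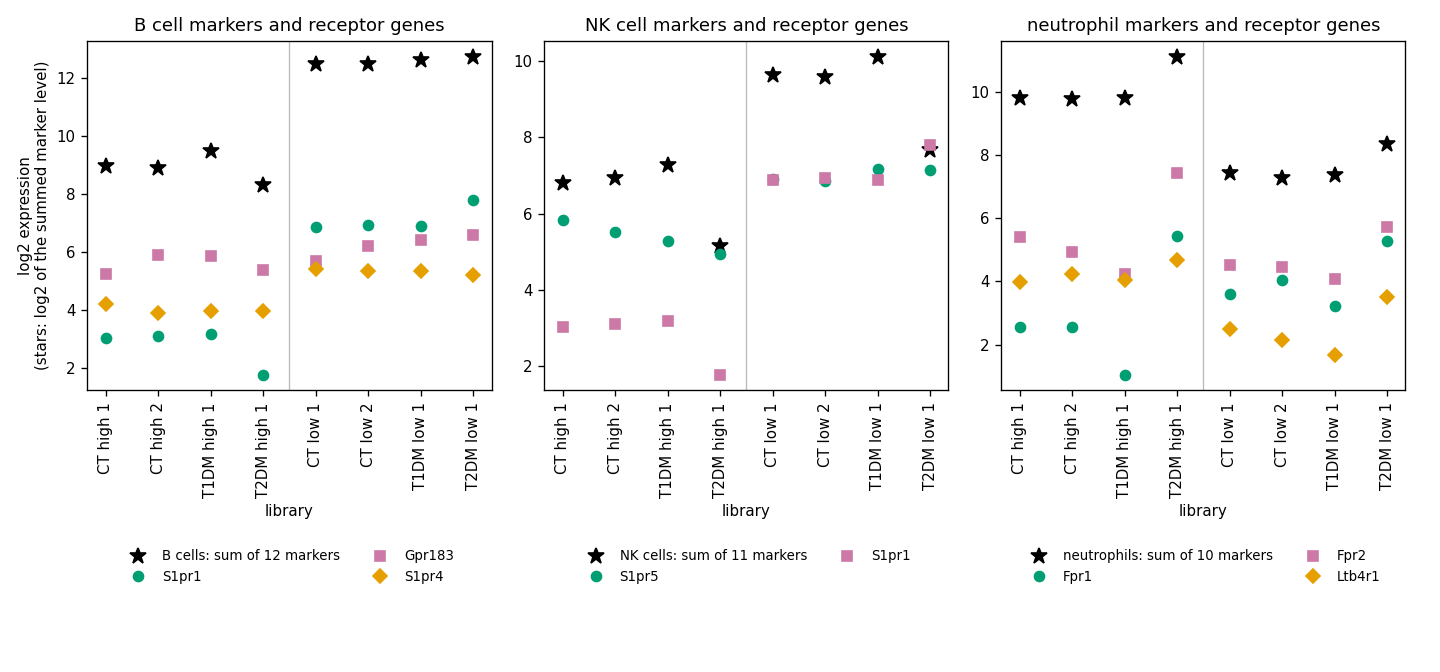
Log2 expression of receptor genes beside the log2 of the summed level of B cell, NK cell and neutrophil markers (stars) in each library (x axis, high for Ly6Chigh and low for Ly6Clow). B cell markers and S1pr1 were low in the 4 Ly6Chigh and high in the 4 Ly6Clow libraries. The NK cell sum was 7.68 in T2DM Ly6Clow MCs where S1pr5 was 7.14, and the neutrophil sum was highest in T2DM within each subset.

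The formyl peptide receptors and Gpr183 did not pass the calling rule between subsets. Fpr1 held 2.55 and 2.56 in the CT, 1.06 in the T1DM and 5.44 in the T2DM Ly6Chigh MCs, and 3.59 and 4.03 in the CT, 3.21 in the T1DM and 5.26 in the T2DM Ly6Clow MCs. It was lower in Ly6Chigh than in Ly6Clow MCs of CT and T1DM mice and not of T2DM mice, and the subset ranges overlapped. Its log2FC was -1.26 in CT (SE 0.23, limma adjusted p = 0.0424) and -1.12 over all mouse groups (SE 0.34, limma adjusted p = 0.0332). Fpr2 held 5.41 and 4.93 in the CT, 4.25 in the T1DM and 7.44 in the T2DM Ly6Chigh MCs, and 4.53 and 4.47 in the CT, 4.09 in the T1DM and 5.72 in the T2DM Ly6Clow MCs. Fpr2 values were thus higher in Ly6Chigh MCs of CT and T2DM mice, by 1.72 in T2DM mice. In T1DM mice the difference was 0.16, with 1 library per subset. This was less than the gap of 0.477 between the CT Ly6Chigh libraries, so its side is uncertain. In CT mice Fpr2 lay on the opposite side to Fpr1. The Fpr2 log2FC was 0.67 in CT (SE 0.21, limma adjusted p = 0.11) and 0.80 over all mouse groups (SE 0.24, limma adjusted p = 0.03).

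Gpr183 (ENSMUSG00000051212.8, chr14:121952551-121965195, inside Ubac2 on the opposite strand) held 5.24 and 5.90 in the CT, 5.86 in the T1DM and 5.39 in the T2DM Ly6Chigh MCs. Ly6Clow MCs held 5.68 and 6.20 in the CT, 6.41 in the T1DM and 6.61 in the T2DM library. The CT replicates of this gene were the farthest apart of the 8, by 0.656 in Ly6Chigh and 0.515 in Ly6Clow MCs, and the subsets overlapped. The log2FC of -0.37 in CT (SE 0.32, limma adjusted p = 0.452) lay within this error, and over all mouse groups it was -0.63 (SE 0.21, limma adjusted p = 0.0466).

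**Figure D3:**
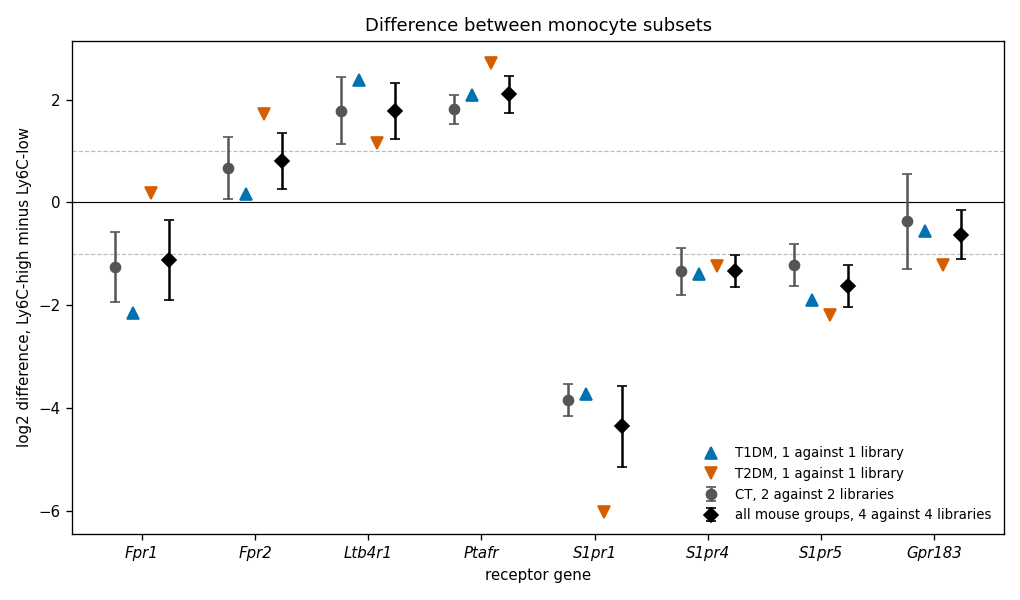
Log2 difference of Ly6Chigh minus Ly6Clow MCs for each receptor gene (x axis). Circles (CT) and diamonds (all mouse groups) are limma estimates with 95% confidence intervals, triangles are single-library differences in T1DM and T2DM mice without an error, and dashed lines mark 1 and -1. S1pr1 lay at -3.84 in CT mice, at -3.72 in the T1DM model and at -6.02 in the T2DM model, and Fpr1 was above 0 in T2DM mice alone.

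Within 1 diabetic model, with 1 library on each side and no test, 2 of the 8 genes were more than 1 higher and 4 more than 1 lower in T1DM Ly6Chigh than Ly6Clow MCs, where 11% and 16.8% of all genes were. In T2DM mice 3 were more than 1 higher and 4 more than 1 lower, where 11.3% and 17.8% of all genes were. The T2DM difference was 1.72 for Fpr2 and -1.22 for Gpr183, which were 0.16 and -0.56 in T1DM mice. Whether the subset difference differs between diabetic and CT mice was tested over the 8 libraries with T1DM and T2DM taken as 1 diabetic group, and limma called 0 of 8 receptor genes and 0% of all genes. The gap between the diabetic models is part of the error of this test, which had an SE of 1.80 for Fpr1 and 1.34 for Fpr2. At an unadjusted p under 0.05 this difference had 1 of the 8 genes and 1084 of all genes. The 1 gene was S1pr5, whose log2FC lay further below 0 in diabetic mice (difference -0.83, SE 0.25, limma adjusted p = 0.655). For S1pr1 the T2DM subset difference minus that of CT mice was -2.17, with 1 T2DM library per subset.

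The second question was how the receptors differ between the diabetic models. T2DM against T1DM is the comparison in which the sequencer is the same on both sides. It has 2 libraries each when both subsets are taken with subset as a covariate. Per the study's methods, 5 mice were pooled in each group, so the 2 libraries of a model are its sorted subsets and not replicate pools. The error of this test thus holds no spread between pools of diabetic mice. The formyl peptide receptors stood out by size. Fpr2 was called, 2.42 higher in T2DM MCs (SE 0.34, limma adjusted p = 0.00995), or 5.33-fold. Fpr1 was 3.22 higher (SE 0.48), or 9.32-fold, and missed the limit for a call at a limma adjusted p = 0.0135. So 1 of 8 receptor genes was called higher and 0 lower, where 0.588% of all genes were called, 0.2% higher and 0.388% lower.

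The rise of Fpr2 rested close to the limit. Without any 1 of the CT libraries, which set part of the error, its limma adjusted p was 0.016 to 0.0292, and it was 0.0865 without the trend of variance on expression. Ltb4r1 was 1.25 higher in T2DM MCs (SE 0.34, limma adjusted p = 0.128). The other 5 genes differed by -0.25 (S1pr1) to 0.32 (Ptafr), with limma adjusted p from 0.593 to 0.948. Their 95% confidence intervals reached from -1.36 to 0.87 for S1pr1 and from -0.50 to 0.39 for S1pr4, so that a 2-fold difference lay outside the interval of S1pr4 and inside that of S1pr1.

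By subset, Fpr1 was 4.39 higher in T2DM than in T1DM Ly6Chigh MCs and 2.05 higher in Ly6Clow MCs. Fpr2 was 3.19 and 1.64 higher, and Ltb4r1 0.64 and 1.86. These were the genes more than 1 higher in at least 1 subset, 2 of 8 in Ly6Chigh and 3 of 8 in Ly6Clow MCs, where 8.46% and 7.29% of all genes were. S1pr1 was the 1 receptor gene more than 1 lower, at -1.39 in Ly6Chigh MCs (10.8% of all genes were more than 1 lower), and it was 0.90 higher in Ly6Clow MCs, where 0 receptor genes and 7.97% of all genes were more than 1 lower. Each of these is a difference of 2 libraries without a replicate.

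Against CT mice, Fpr1 and Fpr2 lay on opposite sides in the diabetic models. Fpr1 minus the CT mean was -1.50 in T1DM and 2.89 in T2DM Ly6Chigh MCs, and -0.60 and 1.45 in Ly6Clow MCs. Fpr2 minus the CT mean was -0.92 in T1DM and 2.27 in T2DM Ly6Chigh MCs, and -0.41 and 1.23 in Ly6Clow MCs. All of these values lay outside both CT libraries, and Fpr1 and Fpr2 were the 2 of 8 genes with T1DM below and T2DM above both CT libraries in both subsets, a pattern that 2.32% of all genes had. The order of Fpr2 was T2DM, CT and T1DM in each subset. The 2 comparisons with CT share the CT libraries. The reverse order, T1DM above and T2DM below both, held for 3.11% of all genes. Any adjustment of CT and diabetic libraries to each other is not given in the sources used here, and the side of CT on which a diabetic library lies would depend on it.

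Tested over both subsets, T1DM against CT called 0 of 8 receptor genes and 0% of all genes by limma, with 2 receptor genes and 551 of all genes at an unadjusted p under 0.05. The 2 were Fpr1 at -1.05 (SE 0.42, limma adjusted p = 1) and Fpr2 at -0.67 (SE 0.29, limma adjusted p = 1). T2DM against CT also called 0 of 8, where 0.297% of all genes were called (0.133% higher and 0.164% lower). At an unadjusted p under 0.05, T2DM against CT had 1474 of all genes (8.94%) and 3 of 8 receptor genes. These were Fpr1 at 2.17 (SE 0.42, limma adjusted p = 0.0586), Fpr2 at 1.75 (SE 0.29, limma adjusted p = 0.0334) and Ltb4r1 at 0.88 (SE 0.29, limma adjusted p = 0.337). Over all genes, CT minus diabetic means had an SD of 0.272, against 0.743 for T2DM minus T1DM. Opposite shifts of T1DM and T2DM cancel in the first. Differences that both diabetic models share against CT were thus small in the deposited values. Whether those values were adjusted between sequencers is not given, so this is no measure of a shared effect of diabetes. For the 8 genes this CT minus diabetic value ran from -0.56 (Fpr1) to 0.14 (S1pr5).

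With the adjusted p limit at 0.05 in place of 0.01, 6 of 8 receptor genes were called between CT subsets (11.7% of all genes) and 6 of 8 between the subsets over all mouse groups (16.9%), the added gene there being Fpr1. Between T2DM and T1DM mice 2 of 8 were then called (1.53% of all genes), Fpr1 and Fpr2. Against CT, 1 of 8 was called in T2DM mice, Fpr2 (0.637% of all genes), and 0 of 8 in T1DM mice (0.0121%). The difference of the subset contrast between diabetic and CT mice had 0 of 8 (0.0182%).

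**Figure D4:**
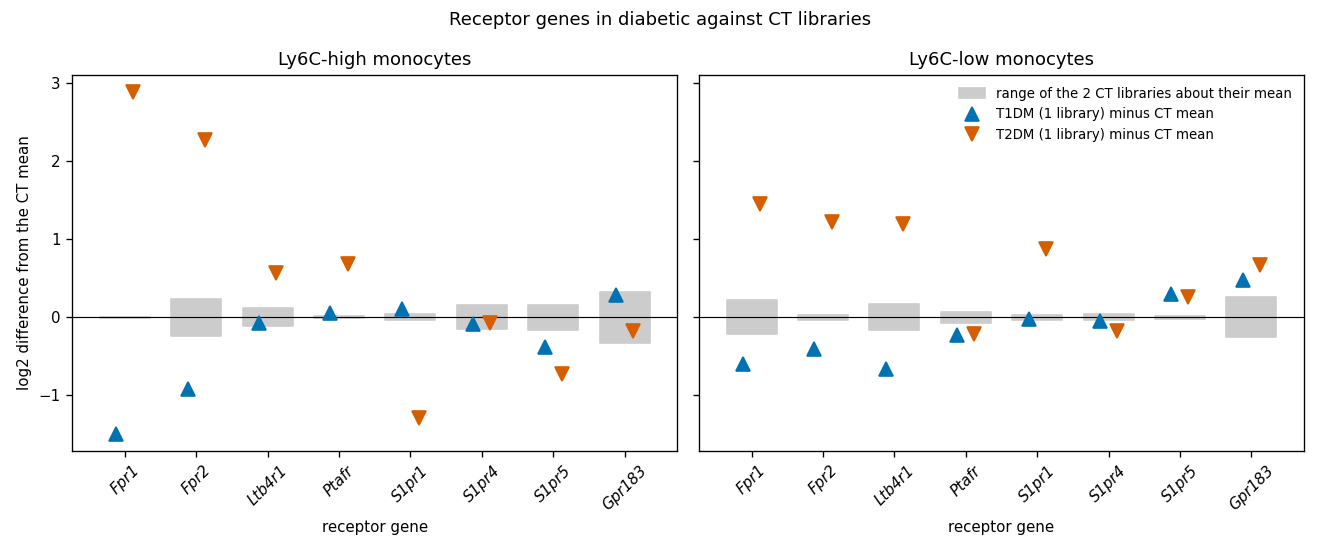
Log2 difference of each diabetic library from the mean of the 2 CT libraries (y axis) for each receptor gene (x axis), in Ly6Chigh (left) and Ly6Clow MCs (right). Grey boxes span the 2 CT libraries. Fpr1 and Fpr2 were below CT in T1DM and above it in T2DM in both subsets, and S1pr1 was below CT in T2DM Ly6Chigh MCs and above it in T2DM Ly6Clow MCs.

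The other receptors showed smaller or subset-specific differences from CT. In T2DM mice, S1pr1 minus the CT mean was -1.29 in Ly6Chigh and 0.88 in Ly6Clow MCs, and Ptafr minus the CT mean was 0.68 and -0.22. More than 1 from the CT mean were Fpr1 and Fpr2 (higher) and S1pr1 (lower) in T2DM Ly6Chigh MCs, where 5.96% of all genes were higher and 7.89% lower. In T2DM Ly6Clow MCs these were Fpr1, Fpr2 and Ltb4r1, all higher, where 5.09% of all genes were higher and 5.68% lower. In T1DM mice it was Fpr1 alone, lower in Ly6Chigh MCs, where 4.94% of all genes were lower and 5.11% higher. In T1DM Ly6Clow MCs it was 0 receptor genes, where 4.03% of all genes were higher and 4.78% lower. S1pr4 minus the CT mean was between -0.17 and -0.05 in all 4 diabetic libraries, and in Ly6Chigh MCs both diabetic libraries lay within the range of the 2 CT libraries.

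Neutrophil and classical MC genes moved with the formyl peptide receptors in T2DM mice. Neutrophils carry Fpr1, Fpr2 and Ltb4r1 at high levels, and the Ly6G- gate is meant to remove them. The 10 neutrophil markers measured of 12 (Ly6g and Camp are not in the values used here) summed to 11.1 in T2DM and 9.78 to 9.80 in the other Ly6Chigh libraries, and to 8.34 in T2DM and 7.27 to 7.41 in the other Ly6Clow libraries. Of them, 8 of 10 in Ly6Chigh and 9 of 10 in Ly6Clow MCs of T2DM mice were above both CT libraries. The Ly6Chigh sums came mostly from Csf3r, Mmp8 and Cd177 (9.36, 9.70 and 9.07 in T2DM). These genes were higher in every Ly6Chigh than in every Ly6Clow library, as the classical MC markers were. S100a8 was 6.90 in T2DM Ly6Chigh and 3.88 in T2DM Ly6Clow MCs, against 1.14 and 1.15 in CT Ly6Chigh and 1.61 and 2.07 in CT Ly6Clow MCs. Retnlg, a neutrophil gene, was -1.55 in T2DM Ly6Chigh MCs and 3.30 in T2DM Ly6Clow MCs, against 1.98 and 1.46 in CT Ly6Chigh and 1.02 and 0.95 in CT Ly6Clow MCs. In T1DM Ly6Chigh MCs, where Fpr1 was lowest, the neutrophil sum was 9.80, beside 9.79 and 9.78 in CT, and 7 of 10 markers were above both CT libraries. Of the 7 classical MC markers, 6 were above both CT libraries in each T2DM subset, with sums of 13.8 in Ly6Chigh (CT 12.7 and 12.7) and 9.96 in Ly6Clow MCs (CT 9.43 and 9.39), and 9 of 9 nonclassical markers were below both in T2DM Ly6Chigh MCs. The part of neutrophils and of the MC makeup in the T2DM values of Fpr1, Fpr2 and Ltb4r1 was not tested.

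Fpr2 also shares sequence. Of its 1295 31-base sequences in the GENCODE M21 transcripts, 43% occur in other genes, 487 of them in the pseudogene Gm5966, 175 in Fpr3, which overlaps Fpr2, and 20 in Fpr1. Neither Gm5966 nor Fpr3 is among the values used here, so the Fpr2 value is uncertain where reads could be split between these genes. Fpr1 shares 1.55%, S1pr1 0.365%, S1pr5 1.21%, S1pr4 2.76% and Ptafr 3.08% of such sequences, and Ltb4r1 and Gpr183 share 0.

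Genes around the receptors were taken from lists of ligands, enzymes, paralogs and signalling partners, 114 genes of which 100 were measured. Over all mouse groups 12 of the 100 were called higher and 15 lower in Ly6Chigh MCs, where 5.37% and 6.76% of all genes were, and in CT mice 8 and 2, where 2.1% and 1.43% of all genes were. Anxa1, which encodes the Fpr2 ligand annexin A1, was 2.10 higher in CT Ly6Chigh MCs (SE 0.10, limma adjusted p = 0.00499). Alox5ap, the 5-lipoxygenase-activating protein of leukotriene synthesis, was 2.36 higher in them (SE 0.05, limma adjusted p = 0.00211), while Alox5, the lipoxygenase itself, was called lower over all mouse groups (log2FC -1.11, SE 0.16, limma adjusted p = 0.000739). Pla2g7, the PAF acetylhydrolase that breaks PAF down, was 1.24 higher in CT Ly6Chigh MCs (SE 0.06, limma adjusted p = 0.00541). Pafah1b3, a catalytic subunit of another PAF acetylhydrolase, was called lower over all mouse groups at -2.83 (SE 0.35, limma adjusted p = 0.000346).

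Pla2g7 was also the 1 gene of the 100 called between the diabetic models, 1.93 higher in T2DM than in T1DM MCs (SE 0.12, limma adjusted p = 0.000178), with 0 called lower. Among receptors for related lipids, Cysltr1, a cysteinyl leukotriene receptor, was called higher in Ly6Chigh MCs over all mouse groups at 1.49 (SE 0.17, limma adjusted p = 0.000246). The low-affinity leukotriene B4 receptor Ltb4r2 was not called, at 0.46 (SE 0.39, limma adjusted p = 0.411). The S1P receptors S1pr2 at 1.08 (SE 0.33, limma adjusted p = 0.036) and S1pr3 at -0.64 (SE 0.43, limma adjusted p = 0.293) were not called either.

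In the list of S1P enzymes and transporters, 1 of 11 was called higher and 3 lower over all mouse groups, beside 5.37% and 6.76% of all genes. Sphk2, a kinase that makes S1P, was 1.16 higher (SE 0.11, limma adjusted p = 0.000101). The lipid phosphatase Plpp3, the S1P phosphatase Sgpp2 and the S1P exporter Spns2 were lower, with log2FC of -4.82, -2.62 and -2.59. Spns2 was close to the limit (SE 0.59, limma adjusted p = 0.00942). In Ly6Chigh MCs Plpp3 held -2.51 to -0.70 and Spns2 -1.43 to 0.85, low values at which the size of a log2FC is uncertain. Of 8 regulators of S1P receptors 2 were called lower and 0 higher, among them Tbx21 (T-bet), known to drive S1pr5 in NK cells, at -3.07 (SE 0.36, limma adjusted p = 0.000276), and Cd69, which pulls S1pr1 from the cell surface, at -1.70 (SE 0.20, limma adjusted p = 0.000291). These stood on the same side as the S1P receptors and as the B cell markers. Of 3 measured genes for oxysterol synthesis and breakdown, Hsd3b7 and Cyp27a1 were called higher, at 1.98 and 1.61.

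Of 25 measured receptors for other lipids 3 were called higher and 7 lower over all mouse groups, beside the same 5.37% and 6.76%. The largest of these were Gpr55 at -4.54, Gpr174 and P2ry10, lymphocyte receptors for lysophosphatidylserine, at -3.97 and -3.95, and the thromboxane receptor Tbxa2r at -2.87. In Ly6Chigh MCs Gpr55 held only -1.43 to 0.40 and Tbxa2r -2.23 to -0.07, so the sizes of their log2FC are uncertain. In G protein signalling 1 of 15 was called, Pik3r6, a regulatory subunit of PI3K gamma, at 2.35 (SE 0.16, limma adjusted p = 1.2e-05). Of 12 measured genes for receptor desensitization, Rgs10 was called higher at 2.05 and Rgs1 lower at -2.81 over all mouse groups, and Rgs2 was called higher in CT mice (limma adjusted p = 0.00591) but not over all mouse groups, where its log2FC was 0.94. Of 6 other chemoattractant receptors, for C5a, C3a, chemerin and prostaglandin D2, limma called 0 over all mouse groups. At an unadjusted p under 0.05 it was 1 of 6, beside 43.2% of all genes.

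**Figure D5:**
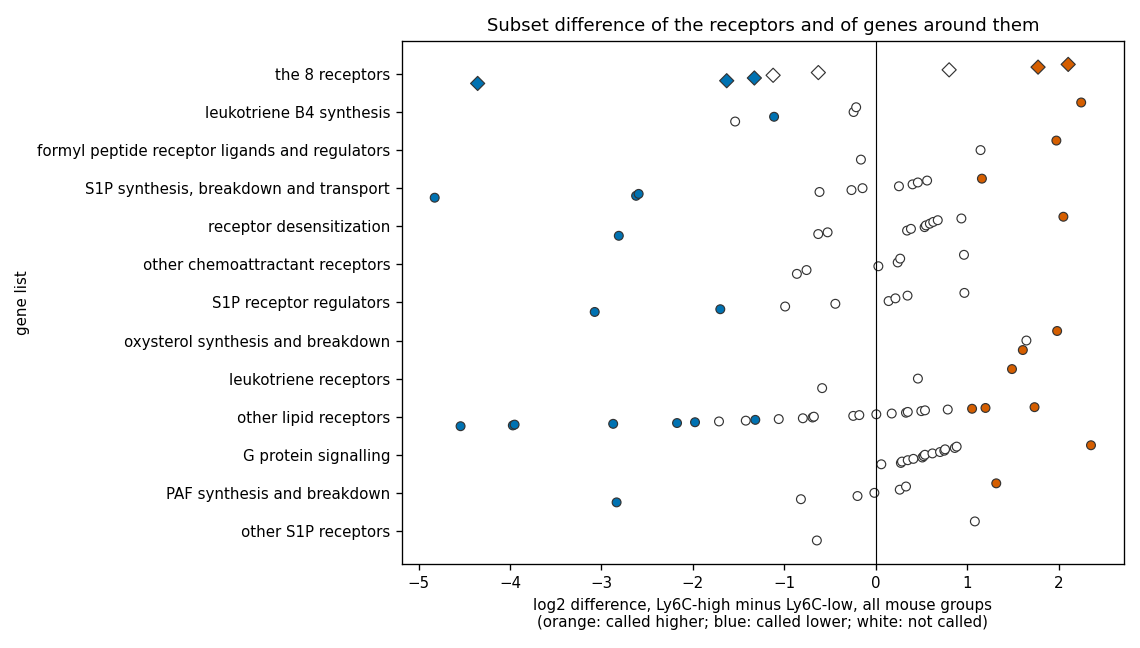
Log2 difference of Ly6Chigh minus Ly6Clow MCs over all mouse groups (x axis) for the 8 receptor genes (diamonds) and for 100 genes around them by list (y axis, circles). Orange genes were called higher, blue genes lower and white genes not called, and 12 of the 100 were orange and 15 blue.

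The genes most like each receptor were looked up by the Pearson correlation r of log2 values over the 8 libraries, among 9199 genes whose log2 values averaged 3 or more. These r are descriptions, since the 8 points share subset, mouse group and sequencer. Cd79a, the B cell receptor chain, came first for S1pr1 (r = 0.997), C1galt1c1 for Ptafr (r = 0.9999), Tubb5 for S1pr5 (r = 0.997) and Nid1 for S1pr4 (r = 0.997). Gad1-ps came first for Ltb4r1 (r = 0.987), Acpp for Fpr2 (r = 0.977), Sgip1 for Fpr1 (r = 0.972) and Apbb3 for Gpr183 (r = 0.960). Among the receptors themselves, r was 0.976 between S1pr1 and S1pr5, -0.994 between S1pr1 and Ptafr, 0.875 between Ltb4r1 and Ptafr and 0.666 between Fpr1 and Fpr2. The first 3 of these pairs hold genes whose subsets did not overlap.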

How the data were processed

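RNA-Seq values of 8 libraries were analysed, grouped by their labels. Per the labels and the study's methods, the authors ran Kallisto (version 0.45), collapsed transcripts into genes (tximport version 1.12.3, R version 3.6.1) and deposited normalized log2 expression values, from -4.05 to 15.64, with mm10 named in the submitters' processing notes. The scaling between libraries and any adjustment between sequencers are not given in the sources used here. The values hold no counts, so depth behind each value is unknown. Among the values used here, only CT has replicates within a subset.

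Here, limma (version 3.58.1, lmFit and eBayes with trend) in R 4.3.3 was run on the log2 values of all 16486 genes, with no pseudocount and no filter, with Benjamini-Hochberg adjustment over all of them. The test was first checked on simulated data. Subset contrasts over 8 libraries had mouse group as covariate, and mouse group contrasts had subset. The change of the subset difference from CT to diabetic mice was fitted with T1DM and T2DM as 1 group, without mouse group as covariate. Differences with 1 library on a side were given without a test, except that change for 1 diabetic model alone, where the single libraries are assumed to vary like the CT replicates. The receptor genes and gene lists were chosen with earlier results of these data known. All 8 receptors were named in every comparison. Of the lists, genes were named if called between subsets, at most the 4 with the largest absolute log2FC per list, and the paralogs Ltb4r2, S1pr2 and S1pr3. S100a8 and Retnlg were picked once their values were known. Alternatives were a filter (mean log2 value of at least 1, 12527 genes), adding 1 on the linear scale, quantile normalization, no trend, an adjusted p limit of 0.05, a replicate block and leaving out libraries or mouse groups. Marker lists for T cells, eosinophils, basophils and mast cells, dendritic cells, plasmacytoid dendritic cells, platelets and erythroid cells were also computed. Tables and figures were made with Python 3.11.15, numpy 2.4.6, pandas 2.3.3 and matplotlib 3.10.9.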

Additional observations from a re-analysis of the deposited data

Results flagged for a closer look

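Several receptor genes differed in one direction in one subset or mouse group and in the other direction in another. Fpr1 in Ly6Chigh minus Ly6Clow MCs was -1.26 in CT and -2.16 in T1DM mice and 0.18 in T2DM mice. S1pr1 in T2DM minus CT was -1.29 in Ly6Chigh and 0.88 in Ly6Clow MCs, and in T2DM minus T1DM it was -1.39 and 0.90. Ptafr was 0.052 and -0.23 in T1DM minus CT, and 0.68 and -0.22 in T2DM minus CT, with the Ly6Chigh value first. S1pr5 was -0.39 and 0.30 in T1DM minus CT, and -0.72 and 0.26 in T2DM minus CT. Differences in sign between the subsets were also seen in T2DM minus T1DM for S1pr4, at 0.022 and -0.13, and for Gpr183, at -0.47 and 0.19. Each diabetic value is from 1 library per subset. A side is uncertain where the difference was smaller than a CT replicate gap of the gene in a subset compared. This held for Fpr1 in T2DM mice (gap 0.441 in Ly6Clow MCs) and for S1pr4 in Ly6Chigh MCs (gap 0.31). It also held for Gpr183 in Ly6Chigh (gap 0.656) and Ly6Clow MCs (gap 0.515).

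The change in the subset difference from CT to T2DM mice, with the error taken from the CT replicates and each single diabetic library assumed to vary like them, was -2.17 for S1pr1 (limma adjusted p = 0.14), 1.43 for Fpr1 (limma adjusted p = 0.285), 0.90 for Ptafr (limma adjusted p = 0.211) and -0.98 for S1pr5 (limma adjusted p = 0.277). From CT to T1DM mice it was -0.68 for S1pr5 (limma adjusted p = 0.457) and 0.28 for Ptafr (limma adjusted p = 0.606). The differences between T2DM and T1DM mice by subset were not tested. No group held more than 2 libraries, so outlying libraries could not be tested for.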

How the results depend on the processing

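The 2 receptor genes called between CT subsets became 5 with the low-value filter, 6 at an adjusted p limit of 0.05, and 0 without the trend (0 of all genes). They were 0 to 0 when each CT library was left out in turn, where limma called 0 of all genes and 4651 to 5241 genes had an unadjusted p under 0.05. The 5 called over all mouse groups were 5 to 6 under all other alternatives, and 0 in the 4 diabetic libraries alone, where limma called 0 of all genes and 4483 had an unadjusted p under 0.05. The 1 called between T2DM and T1DM mice was 2 with the filter, 2 with quantile normalization, 2 at 0.05, 0 without the trend and 0 to 0 when each CT library was left out. T2DM against CT had 1 at 0.05. The replicate numbers of the CT libraries are shared in name only: replicate differences of the subsets correlated at 0.009 across genes. With the replicate block, receptor calls were 0 in CT, 5 over all mouse groups and 0 between T2DM and T1DM mice.

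Values that changed sign were near 0 or rested on 1 mouse group. S1pr1 in T1DM minus CT was 0.04 and became -0.023 with quantile normalization and -0.076 to 0.16 when each CT library was left out, and S1pr5 was -0.04 and became 0.10 without CT Ly6Chigh replicate 1. For the difference of the subset contrast between diabetic and CT mice, the range over leaving out T2DM mice (first) or T1DM mice (second) was -0.90 to 1.43 for Fpr1, -0.51 to 1.05 for Fpr2, 0.59 to -0.63 for Ltb4r1 and 0.12 to -2.17 for S1pr1. S1pr4 ran from -0.13 (without CT Ly6Chigh replicate 2) to 0.19 (without CT Ly6Chigh replicate 1), and Ltb4r1 also turned to 0.10 or 0.14 without a CT library.

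Of all genes, 581 were called between CT subsets, 1089 with the filter, 1936 at 0.05 and 0 with the block. The 97 called between T2DM and T1DM mice were 26 without the trend, 253 at 0.05, 62 with the block and 57 to 84 without a CT library. The 49 called in T2DM against CT were 9, 105, 13 and 17 to 21 in the same order. Quantile normalization moved the median subset log2FC of all genes in CT from -0.09 to 0.02. The cause was not tested for any of these changes.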

Other observations

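Markers of other blood cells were summed in the same libraries, and values are log2 of the summed level. T cell markers summed to between 4.73 and 5.32 in Ly6Chigh and between 6.00 and 6.38 in Ly6Clow libraries. Eosinophil markers (3 of 5 measured) summed to between 2.52 and 3.66 and between 5.87 and 6.30. Dendritic cell markers (7 of 8 measured) summed to between 6.34 and 7.16 and between 7.01 and 7.95, and plasmacytoid dendritic cell markers to between 7.20 and 7.97 and between 8.25 and 8.53.

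Basophil and mast cell markers summed to 6.57 in T2DM and 4.92 in T1DM Ly6Clow MCs, against 3.18 and 3.53 in CT, and 5 of 5 were above both CT libraries in each. Platelet markers were above both CT libraries in T1DM for 7 of 7 genes in Ly6Chigh (sum 9.78, CT 9.15 and 9.07) and 6 of 7 in Ly6Clow MCs (sum 9.91, CT 8.80 and 8.77). In T2DM mice 6 of 7 platelet markers were below both CT libraries in each subset, with sums of 7.88 and 8.13. Erythroid markers showed the same sides, with 6 of 6 above both CT libraries in each subset of T1DM mice and 4 of 6 (Ly6Chigh) and 6 of 6 (Ly6Clow) below them in T2DM mice.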
